A study of Rattus norvegicus with 105 samples.

Results

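The AMPA and kainate receptors are glutamate-gated ion channels, and their 9 subunit genes, Gria1 to Gria4 and Grik1 to Grik5, were followed here through rat frontal cortex after 3 kinds of intervention. Members were taken from the platform's table of probe sets and genes: every probe set whose gene symbol was 1 of these 9 names was used. This gave 13 probe sets, 8 for the AMPA and 5 for the kainate subunits, of 31042 probe sets and 14217 genes in all. The AMPA probe sets were 1371013_at for Gria1, 1368401_at and 1387171_at for Gria2, 1368691_at and 1376892_at for Gria3, and 1369384_at, 1383707_at and 1396696_at for Gria4. The kainate probe sets were 1387309_a_at for Grik1, 1369036_at for Grik2, 1370587_at for Grik3, 1369163_at for Grik4 and 1369128_at for Grik5.

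RNA of the frontal cortex was measured on Affymetrix arrays in 11 groups, and each experiment had its own control. In the lesion experiment, 12 arrays came from lesioned and 10 from sham rats; the lesion was in the ventral hippocampus, which sends axons to the frontal cortex. In the tetrodotoxin (TTX) experiment, 11 arrays came from rats whose ventral hippocampus had been disrupted with this blocker of sodium channels and 9 from sham rats. In the neuroleptic experiment, rats had chronically received vehicle (9 arrays), clozapine at a low (10 arrays), medium (9 arrays) or high level (8 arrays), or haloperidol at a low, medium or high level (9 arrays each). Clozapine is an atypical and haloperidol a typical antipsychotic drug. The labels gave dose levels as words, and the sources used here give no strain, age, sex, dose amount, treatment length or way of making the lesion. Nor do they say that every array stands for its own animal. The p-values thus reflect how far the arrays of a group scatter, which can include technical scatter.

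No pair of arrays held identical values, and the arrays had been scaled to a common trimmed mean of 2500.6 to 2500.8 intensity units. Of the listed markers, 4 of 5 for pyramidal neurons and 7 of 7 for interneurons were measured, and each of those passed the filter on low values in all 3 experiments. Of 5 measured striatal markers, 3 passed it in the lesion and 4 in each other experiment. The labels numbered the samples, with separate numberings for the hippocampal and the neuroleptic experiments, and values drifted along these numbers. The differences that the results turn on are thus also given within sets of consecutive numbers (2 sets for each hippocampal experiment, 3 for the neuroleptics). These sets were cut here as equal parts of each experiment, and the labels do not define them. Lesion replicate 7, lesion sham replicate 9, haloperidol medium replicate 8 and haloperidol high replicate 8 correlated less with the other arrays of their experiments than the rest did, and values without these 4 arrays are given where they matter.

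AMPA receptors are tetramers that carry most of the fast excitatory transmission between cortical neurons. Gria1 encodes a subunit that is trafficked to synapses with activity, Gria2 the subunit whose edited form keeps calcium out of the channel, Gria3 a subunit usually paired with Gria2, and Gria4 a subunit prominent in fast-spiking interneurons. Kainate receptors work on both sides of the synapse. Grik1, Grik2 and Grik3 encode subunits that can form channels alone, while Grik4 and Grik5 encode high-affinity subunits that need 1 of the former as partner. In bulk tissue, fewer cells of a type and less RNA per cell cannot be told apart. The arrays measure transcripts, so RNA editing, receptor assembly and surface levels were not measured.

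All values below are log2 intensities after normalisation, and all differences are log2 differences. On this scale a difference of 0.10 is a ratio of 1.07 (Gria1 under clozapine) and one of -0.20 a ratio of 0.873 (Gria4 under clozapine, 1383707_at). Intensities of different probe sets depend on the probes and were not compared with each other. Across the 11 groups the mean of a probe set moved little. Gria2 kept group means of 15.32 to 15.40 on 1368401_at and of 14.77 to 14.92 on 1387171_at. Group means of Gria3 lay between 12.91 and 13.13 on 1368691_at and between 14.37 and 14.62 on 1376892_at. For Gria1 they ran from 12.04 to 12.34, for Gria4 on 1383707_at from 11.61 to 11.93, on 1396696_at from 10.64 to 10.99 and on 1369384_at from 9.27 to 9.56. Among the kainate subunits the range was 9.13 to 9.51 for Grik1, 10.83 to 11.28 for Grik2, 10.20 to 10.58 for Grik4 and 11.64 to 11.86 for Grik5. Grik3 was the exception, with group means from 7.37 to 8.20 and group SDs up to 1.38.

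**Figure D1:**
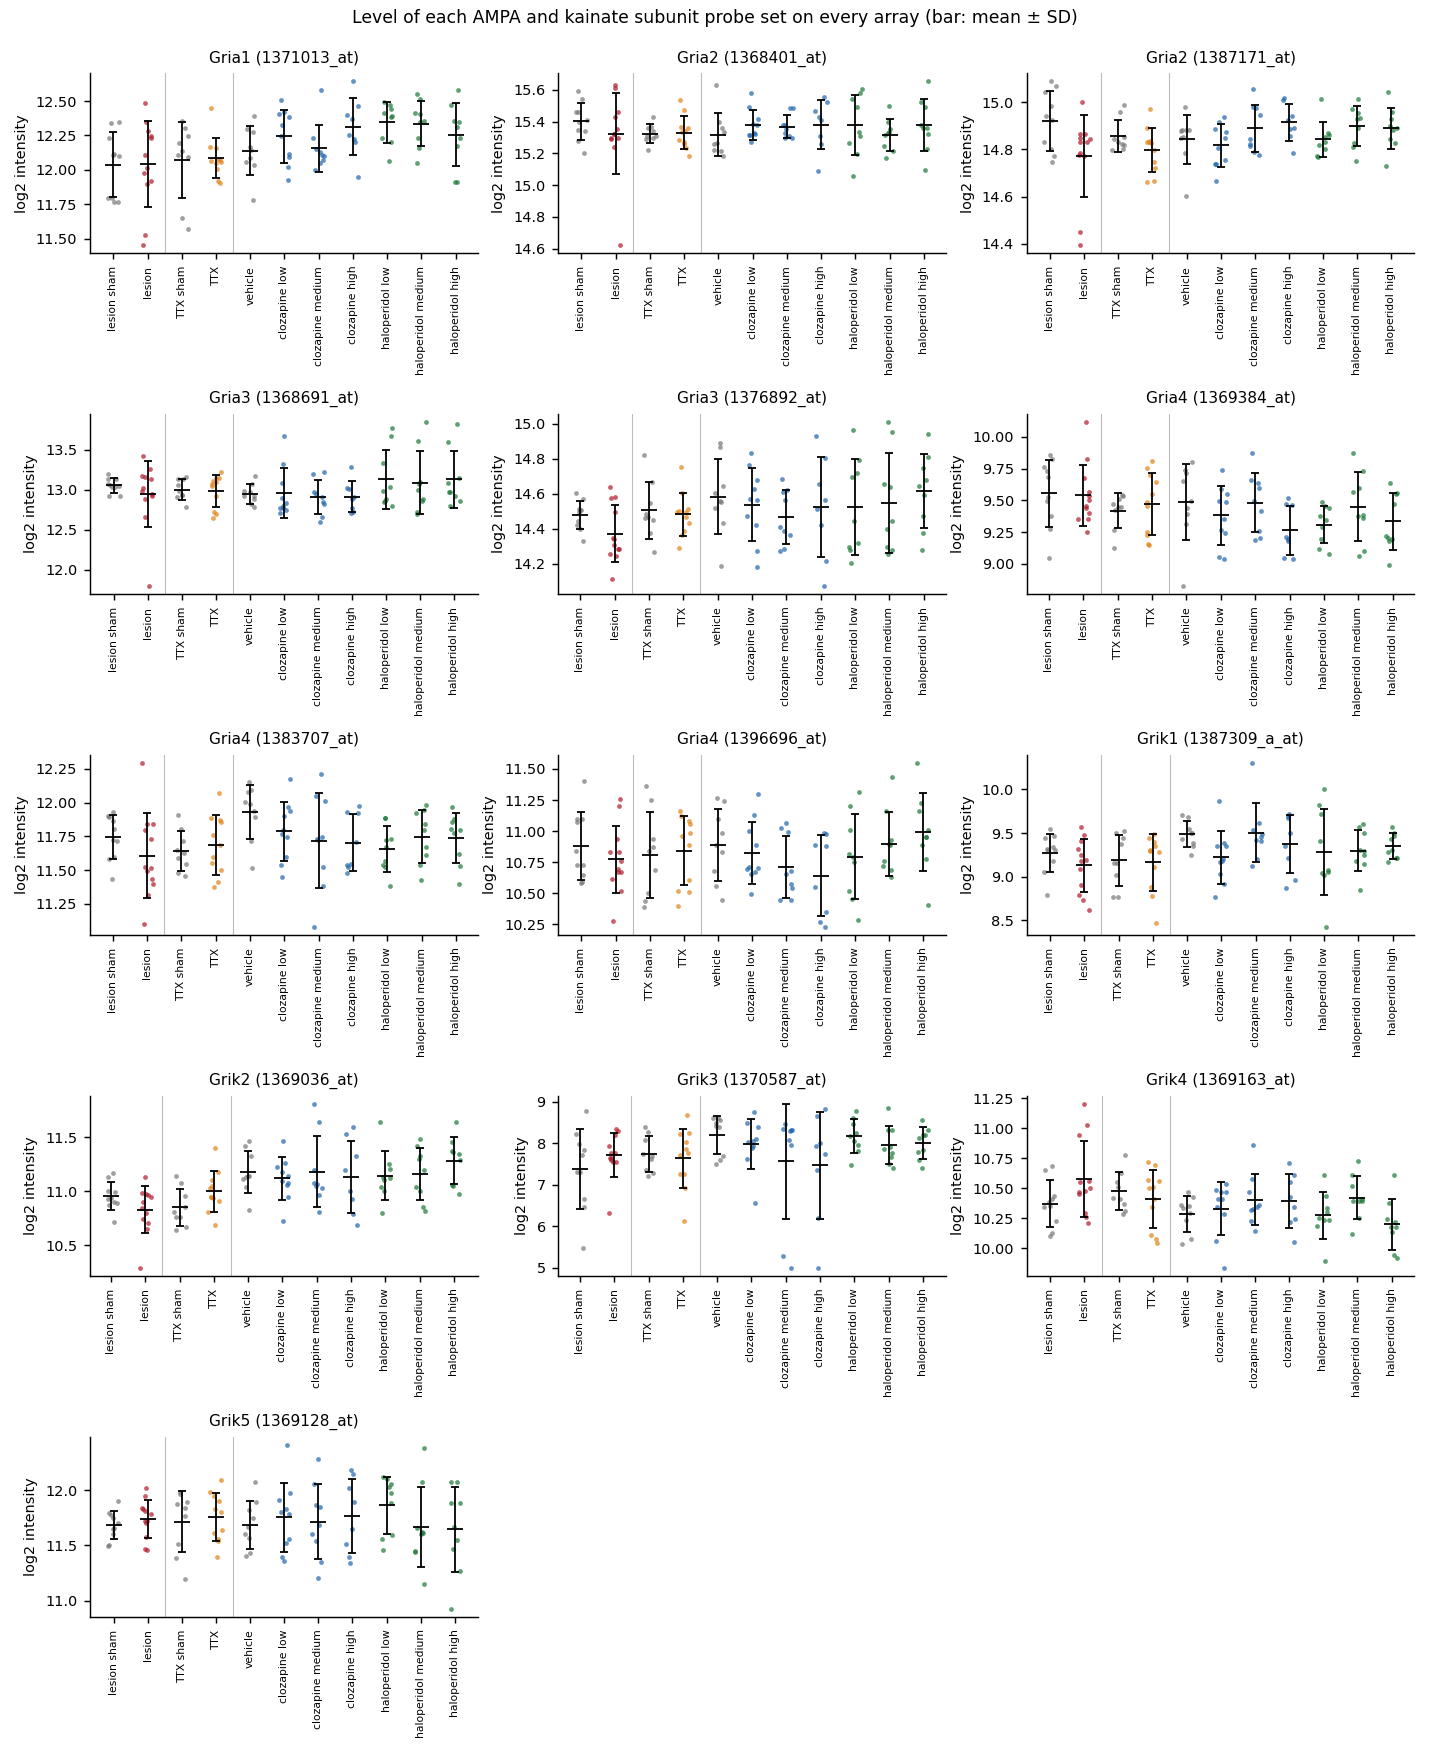
Log2 intensity of each of the 13 probe sets (each in a panel of its own) on every array by group; each point is 1 array and the black bar is the group mean ± SD. Grey marks sham and vehicle arrays, red lesion, orange TTX, blue clozapine and green haloperidol, and grey lines part the 3 experiments, which were normalised separately. In every panel the treated groups overlap their control, and the widest scatter is that of Grik3, whose clozapine medium and clozapine high groups reach down to 5.00.

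Of the 13 probe sets 12 passed the filter, the 60% of probe sets with the highest mean in an experiment, in all 3 experiments. The Grik3 probe set passed in none. Its means were 7.56, 7.68 and 7.91 in the lesion, TTX and neuroleptic experiments, below the lowest kept means of 8.88, 8.92 and 8.94. Its values are therefore given with no test.

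Of the 12 tested member probe sets, 0 reached an adjusted p under 0.05 in any of 12 comparisons (limma, Benjamini-Hochberg over all 18625 probe sets tested in each). The lowest adjusted p of a member in these fits was 0.230, that of Gria3 (1368691_at) between clozapine and haloperidol. Few probe sets of any kind were called in most comparisons, so the members' counts were read against those shares. No member's treated arrays lay wholly outside the range of its control arrays in any of the 11 comparisons between groups. The same was not counted over all probe sets, so nothing particular to the members is read from it.

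After the ventral hippocampal lesion, no subunit passed the test, and the direction of the AMPA subunits was not stable. A lower mean was found for 7 of 8 AMPA probe sets, with a median difference of -0.11, while the median over all 18625 probe sets tested was -0.0012. Without the low-correlation arrays it was 5 of 8, with a median of -0.057. Within the sets of sample numbers 3 of 8 were lower in the first and 8 of 8 in the second, so 5 of 8 had opposite signs in them. The 5 kainate probe sets were split, with 2 lower and 3 higher. At an adjusted p under 0.05, 0 of 12 members and 0% of all probe sets were called. At an unadjusted p under 0.05, 1 of 12 members and 7.81% of all probe sets passed.

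The member past the unadjusted threshold was Gria2 on 1387171_at. Lesion arrays ran from 14.40 over a median of 14.83 to 15.00, and sham arrays from 14.75 over 14.93 to 15.09. Of the lesion arrays 2 lay below every sham array and 11 of 12 below the sham mean, and the rest of both groups overlapped. The difference was -0.15 ± 0.068 (SE, 95% interval -0.29 to -0.0079, n = 12 and 10, limma p = 0.0392, adjusted p = 0.621). It was -0.23 in the first set of sample numbers and -0.067 in the second. The other Gria2 probe set, 1368401_at, differed by -0.079 ± 0.086 (SE), and its lowest lesion value, 14.62, came from lesion replicate 7. Without the low-correlation arrays, lesion replicate 7 and lesion sham replicate 9, that difference was -0.022, and that on 1387171_at was -0.17. Within the sets the difference on 1368401_at was 0.016 and -0.17.

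Gria3 on 1376892_at, encoding a subunit that pairs with Gria2, ran from 14.11 over 14.32 to 14.64 on lesion arrays and from 14.33 over 14.50 to 14.60 on sham arrays. Of the 12 lesion arrays 6 lay below every sham array and 1 above, and the rest overlapped. The difference was -0.11 ± 0.060 (SE, 95% interval -0.23 to 0.016, adjusted p = 0.699). The second Gria3 probe set, 1368691_at, had the same mean difference, -0.11, with a larger error of ± 0.13 (SE). There lesion arrays spread from 11.80 to 13.42 and sham arrays from 12.92 to 13.19, and the lowest value was again that of lesion replicate 7. Without the low-correlation arrays the difference on 1368691_at was 0.0063, so its direction rested on them. Within the sets of sample numbers it was 0.074 and -0.29.

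For Gria4, the differences were -0.14 ± 0.11 on 1383707_at, -0.11 ± 0.11 on 1396696_at and -0.018 ± 0.10 (SE) on 1369384_at, with adjusted p from 0.789 to 0.986. In the first and second set of sample numbers they were -0.24 and -0.036, 0.00098 and -0.21, and 0.15 and -0.18. Without the low-correlation arrays the value on 1369384_at turned to 0.021. Gria1 was level, with a mean of 12.04 ± 0.31 (SD, n = 12) on lesion arrays against 12.04 ± 0.24 (SD, n = 10) on sham arrays. The 95% interval of the Gria1 difference was -0.23 to 0.24, and the difference was 0.040 and -0.033 in the sets.

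Among the kainate subunits, Grik4 showed the highest tested difference. Its lesion arrays ran from 10.21 over a median of 10.49 to 11.20 and its sham arrays from 10.10 over 10.37 to 10.68. Of the lesion arrays 3 lay above every sham array, and 9 of 12 lay above the sham mean. The difference was 0.21 ± 0.11 (SE, 95% interval -0.019 to 0.43, adjusted p = 0.679), and it was 0.24 and 0.18 in the 2 sets of sample numbers. Grik5, the other high-affinity subunit, differed by 0.056 ± 0.067 (SE). Grik1 differed by -0.15 ± 0.11 and Grik2 by -0.13 ± 0.078 (SE), each lower on 8 of 12 arrays. Grik3, below the filter, differed by 0.35 ± 0.31 (SE), with sham values from 5.48 to 8.77.

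After TTX, no subunit passed the test. Over all arrays, the 8 AMPA differences lay between -0.059 (Gria2, 1387171_at) and 0.052 (Gria4, 1369384_at), 5 of them higher and 3 lower. Of the 8, 5 had opposite signs in the 2 sets of sample numbers. There Gria4 had 0.21 and -0.088 on 1383707_at and -0.11 and 0.18 on 1369384_at. At an adjusted p under 0.05, 0 of 12 members and 0% of all probe sets were called. At an unadjusted p under 0.05, 0 of 12 members and 4.63% of all probe sets passed. Both Gria2 probe sets had narrow intervals, -0.089 to 0.10 on 1368401_at and -0.15 to 0.035 on 1387171_at.

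Grik2, a pore-forming kainate subunit, had the largest tested difference after TTX. TTX arrays ran from 10.68 over a median of 10.95 to 11.40 and TTX sham arrays from 10.64 over 10.80 to 11.14. Of 11 TTX arrays 9 lay above the sham mean and 2 above every sham array. The difference was 0.15 ± 0.081 (SE, 95% interval -0.017 to 0.32, n = 11 and 9, adjusted p = 0.999). It was 0.24 in the first set of sample numbers and 0.041 in the second. Grik4 differed by -0.061 ± 0.091, Grik5 by 0.039 ± 0.11, Grik1 by -0.026 ± 0.13 and Grik3 by -0.095 ± 0.26 (SE).

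Whether the lesion and TTX differences themselves differed was tested in 1 fit over both experiments. It addresses whether a lesion and a TTX disruption of the same region went with different cortical levels. All 8 AMPA values were negative, from -0.18 to -0.0082, with a median of -0.087. At an adjusted p under 0.05, 0 of 12 members and 0% of all probe sets were called, and at an unadjusted p under 0.05 it was 1 of 12 members and 6.34% of all probe sets. This member was Grik2, lower than sham after the lesion and higher than sham after TTX, with a difference between effects of -0.28 ± 0.11 (SE, 95% interval -0.50 to -0.048, p = 0.0190, adjusted p = 0.71). In the first and second set of sample numbers of each experiment, Grik2 differed from sham by -0.19 and -0.060 after the lesion. After TTX it differed by 0.24 and 0.041, so both differences were larger in the first set. For Grik4 the difference between effects went the other way, 0.27 ± 0.15 (SE, 95% interval -0.028 to 0.56, adjusted p = 0.791). Gria4 on 1383707_at gave -0.18 ± 0.14 (SE, adjusted p = 0.866). Without the low-correlation arrays the value turned from -0.090 to 0.023 for Gria3 on 1368691_at and from -0.0082 to 0.015 for Gria1, and the other AMPA values kept their sign.

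**Figure D2:**
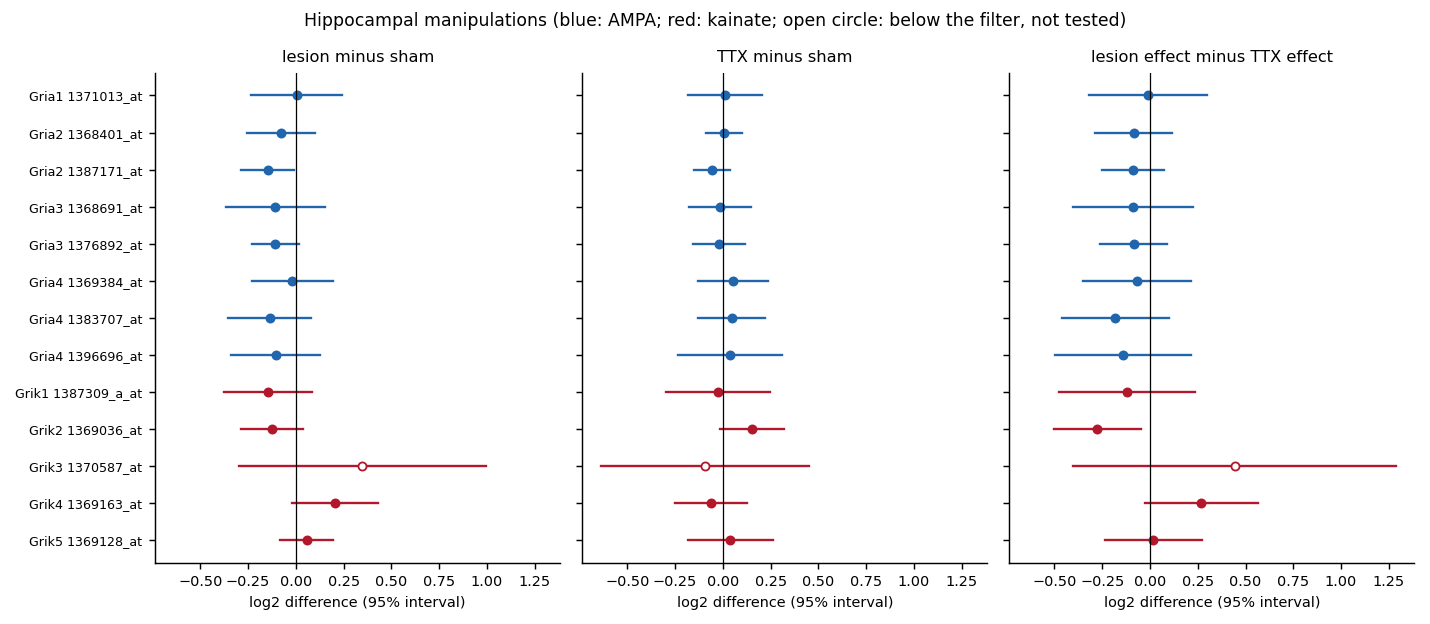
Log2 differences of the 13 probe sets with 95% intervals for the lesion minus its sham, TTX minus its sham, and the lesion effect minus the TTX effect; blue marks AMPA and red kainate subunits, and the open circle is Grik3, which was below the filter. In the lesion panel 7 of 8 blue points lie left of 0, in the TTX panel all blue points lie within -0.059 to 0.052, and Gria2 (1387171_at) in the first panel and Grik2 in the third are the only tested points whose interval leaves out 0.

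Means of cell type markers differed beside these values. After the lesion, 6 of 7 interneuron markers had a higher mean, with a median difference of 0.15 and 0 called. Their mean level, each marker centred over all arrays, ranged from -0.13 to 0.49 on lesion and from -0.26 to 0.16 on sham arrays. All 5 tested oligodendrocyte markers had a lower mean after the lesion (median -0.095) and after TTX (median -0.14), with 0 called in each. All 4 tested pyramidal neuron markers had a higher mean after TTX (median 0.15, 0 called), and 3 of 4 a lower one after the lesion (median -0.030). Of the 3 tested striatal markers, Penk and Drd1 had a higher mean after the lesion, 0.39 ± 0.11 and 0.45 ± 0.19, and Ppp1r1b had -0.094 ± 0.087 (SE), with 0 called. The mean level of the 5 measured striatal markers ranged from -0.34 to 0.12 on lesion and from -0.80 to 0.062 on sham arrays. The mean level of the pyramidal markers ranged from -0.26 to 0.12 on TTX and from -0.35 to 0.032 on TTX sham arrays. The part of these cell types in the subunits' differences was not tested.

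Under clozapine, averaged over its 3 dose levels, no member was called. Of 13 probe sets 5 had a higher and 8 a lower mean than under vehicle. At an adjusted p under 0.05, 0 of 12 members and 0% of all probe sets passed, and at an unadjusted p under 0.05, 1 of 12 members and 3.81% of all probe sets. Under haloperidol, 8 were higher and 5 lower. There, 0 of 12 members and 0.0161% of all probe sets passed the adjusted threshold, and 2 of 12 members and 6.73% of all probe sets the unadjusted one. Both drugs were set against the same 9 vehicle arrays, so the values of the 2 comparisons are not independent. Blood markers (2 of 3 listed were measured, Hbb and Alas2) had their highest mean level, 0.97, in the high clozapine group. Each centred over all arrays, this level ranged from 0.13 to 1.64 there, from -0.0037 to 1.26 at the medium and from -2.37 to 0.93 at the low clozapine level, and from -0.25 to 0.33 under vehicle. Averaged over the levels, Hbb differed by 0.26 ± 0.20 and Alas2 by 0.33 ± 0.24 (SE) between clozapine and vehicle, with 0 called, and the part of blood in the subunits' differences was not tested.

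Gria4 on 1383707_at was the member past the unadjusted threshold under both drugs. Vehicle arrays ran from 11.52 over a median of 11.99 to 12.15. Clozapine arrays ran from 11.45 over 11.78 to 12.18 at the low level, from 11.08 over 11.73 to 12.21 at the medium level and from 11.48 over 11.63 to 11.98 at the high level. Haloperidol arrays ran from 11.38 over 11.67 to 11.89 at the low level, from 11.43 over 11.79 to 11.98 at the medium level and from 11.40 over 11.80 to 11.97 at the high level. The vehicle median lay above the median of each treated group, and every treated group overlapped the vehicle range.

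The difference from vehicle on 1383707_at was -0.20 ± 0.087 for clozapine (SE, 95% interval -0.37 to -0.023, p = 0.0273, adjusted p = 0.977), with 20 of 27 arrays below the vehicle mean. It was -0.22 ± 0.086 for haloperidol (SE, 95% interval -0.39 to -0.045, p = 0.0143, adjusted p = 0.646), with 24 of 27 arrays below it. Within the 3 sets of sample numbers it was -0.23, -0.083 and -0.12 for clozapine and -0.20, -0.063 and -0.22 for haloperidol. These within-set values rest on 4, 2 and 3 vehicle arrays.

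The other Gria4 probe sets did not repeat this in the same way. On 1369384_at the differences were -0.11 ± 0.089 for clozapine and -0.12 ± 0.089 (SE) for haloperidol. Vehicle replicate 9, at 8.83 the lowest vehicle array by a wide gap, weighed on both, and without it they were -0.19 and -0.21. Within the 3 sets of sample numbers the differences on 1369384_at changed sign. They were -0.15, -0.21 and 0.017 for clozapine and -0.29, -0.23 and 0.11 for haloperidol. On 1396696_at they were -0.16 ± 0.11 for clozapine and 0.0060 ± 0.11 (SE) for haloperidol. All 3 Gria4 probe sets were thus below vehicle under clozapine, and 2 of 3 under haloperidol, with adjusted p from 0.646 to 0.999 over these 6 values.

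Gria1, encoding the subunit delivered to synapses with activity, had a higher mean than vehicle at every dose level of both drugs. Vehicle arrays ran from 11.78 over a median of 12.14 to 12.39. Haloperidol arrays ran from 12.06 over 12.39 to 12.50 at the low, from 12.05 over 12.35 to 12.55 at the medium and from 11.91 over 12.31 to 12.58 at the high level. Clozapine arrays had medians of 12.28, 12.11 and 12.31 at the low, medium and high level, within 11.92 to 12.64. The medium clozapine median was below that of vehicle although its mean, 12.16, was above the vehicle mean of 12.14. Clozapine medium replicate 3 stood at 12.58 and the others of its group at 12.00 to 12.23.

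The Gria1 difference from vehicle was 0.17 ± 0.071 for haloperidol (SE, 95% interval 0.031 to 0.32, p = 0.0180, adjusted p = 0.646), with 23 of 27 arrays above the vehicle mean. For clozapine it was 0.10 ± 0.072 (SE, 95% interval -0.043 to 0.24, adjusted p = 0.977), with 16 of 27 arrays above. All 4 tested pyramidal neuron markers also had a higher mean under clozapine (median 0.068, 0 called) and under haloperidol (median 0.10, 0 called), and their part in the Gria1 values was not tested. The haloperidol value of Gria1 was 0.030, 0.27 and 0.22 in the 3 sets of sample numbers, and the clozapine value 0.066, 0.056 and 0.19.

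Gria2 differed from vehicle by 0.030 to 0.058 over both probe sets and both drugs, with SEs of 0.038 on 1387171_at and 0.054 on 1368401_at. Gria3 on 1368691_at differed by 0.17 ± 0.11 (SE) for haloperidol, and that value was -0.053, 0.089 and 0.43 in the 3 sets of sample numbers. On 1376892_at the Gria3 difference for haloperidol was -0.022 ± 0.090 (SE). The 4 tested kainate subunits lay between -0.12 (Grik1) and 0.089 (Grik4) for clozapine and between -0.17 (Grik1) and 0.036 (Grik5) for haloperidol, with SEs from 0.077 to 0.12. Grik3, not tested, had -0.53 ± 0.30 for clozapine and -0.16 ± 0.30 (SE) for haloperidol; 2 clozapine arrays were at the floor of 5.00.

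Single dose levels gave no call either. The share of all probe sets called was 0% for clozapine low, 0.0215% for clozapine medium and 0.00537% for clozapine high, and 0% for haloperidol low, 0.00537% for haloperidol medium and 0.0268% for haloperidol high, and 0 of 12 members were called in each. All 6 levels share the 9 vehicle arrays. For Gria4 on 1383707_at the differences at the low, medium and high level were -0.15, -0.21 and -0.23 for clozapine and -0.28, -0.18 and -0.20 for haloperidol, each with an SE of 0.10 to 0.11. For Gria1 they were 0.11, 0.020 and 0.18 for clozapine and 0.21, 0.20 and 0.12 for haloperidol, with SEs of 0.085 to 0.090. Neither drug gave an order of levels beyond these errors.

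With the 7 neuroleptic groups put in order of their means, neighbours differed by less than 2 SE for each of the 13 probe sets, as sorting brings like means together. The highest and lowest group were 0.21 ± 0.088 apart for Gria1, 0.28 ± 0.11 for Gria4 on 1383707_at, 0.35 ± 0.14 for Gria4 on 1396696_at and 0.22 ± 0.094 (SE) for Grik4. These pairs were picked for their distance and have no test. Vehicle was the highest group for Gria4 on 1383707_at and 1369384_at and for Grik3, and the lowest for Gria1. For Gria4 on 1383707_at the order was vehicle, clozapine low, haloperidol medium, haloperidol high, clozapine medium, clozapine high and haloperidol low, and for Gria1 haloperidol low, haloperidol medium, clozapine high, haloperidol high, clozapine low, clozapine medium and vehicle.

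Clozapine and haloperidol were also compared with each other, in a test that uses no vehicle array. This comparison had the most calls of any, and none fell on a member. At an adjusted p under 0.05, 0 of 12 members and 1.20% of all probe sets were called, and at an unadjusted p under 0.05, 2 of 12 members and 15.2% of all probe sets. The levels of the 2 drugs are words and not matched amounts, so the test compares the mean of 3 levels of each.

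The first of the 2 members was Gria3 on 1368691_at, with -0.19 ± 0.080 (SE, 95% interval -0.35 to -0.030, p = 0.0209, adjusted p = 0.230), lower than the haloperidol mean on 22 of 27 clozapine arrays. Clozapine means were 12.96, 12.91 and 12.92 and haloperidol means 13.13, 13.09 and 13.13 at the low, medium and high level. The highest haloperidol arrays reached 13.77 to 13.84, and a low clozapine array reached 13.67. Medians of the 3 haloperidol groups were 12.97 to 13.00. Those of clozapine were 12.81, 12.91 and 12.90 at the low, medium and high level, and that of vehicle was 12.93. Within the sets of sample numbers the difference was 0.099, -0.16 and -0.48, so it changed sign. The other Gria3 probe set, 1376892_at, had -0.053 ± 0.064 (SE).

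The second was Gria4 on 1396696_at, with -0.17 ± 0.078 (SE, 95% interval -0.32 to -0.012, p = 0.0350, adjusted p = 0.282). Clozapine arrays had medians of 10.71, 10.66 and 10.71 and haloperidol arrays medians of 10.79, 10.89 and 10.95 at the low, medium and high level, and the groups overlapped. The value was -0.14, -0.14 and -0.22 within the 3 sets of sample numbers. With the set as a block it was -0.17 ± 0.058 (SE, adjusted p = 0.0541), the lowest adjusted p of any member under any setting. That setting also called more of all probe sets than the reported fit did, with the counts given in the last section. Of 7 interneuron markers, 5 had a higher and 2 a lower mean under clozapine than under haloperidol, with a median difference of 0.023. Over all probe sets tested, 56.3% were higher under clozapine, with a median of 0.012, and 1.20% were called. Among the 7 markers Npy was called, with 0.15 ± 0.035 (SE, adjusted p = 0.0244), and Sst had 0.099 ± 0.046 (SE, adjusted p = 0.282). The mean level of the 7 ranged from -0.12 to 0.15 over the clozapine groups and from -0.42 to 0.072 over the haloperidol groups, and its part in the Gria4 value was not tested. The other Gria4 probe sets had 0.022 ± 0.061 on 1383707_at and 0.012 ± 0.063 (SE) on 1369384_at. For Gria1 the drugs differed by -0.074 ± 0.051 (SE, adjusted p = 0.492), and for Gria2 by 0.019 ± 0.038 and -0.0030 ± 0.027 (SE).

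**Figure D3:**
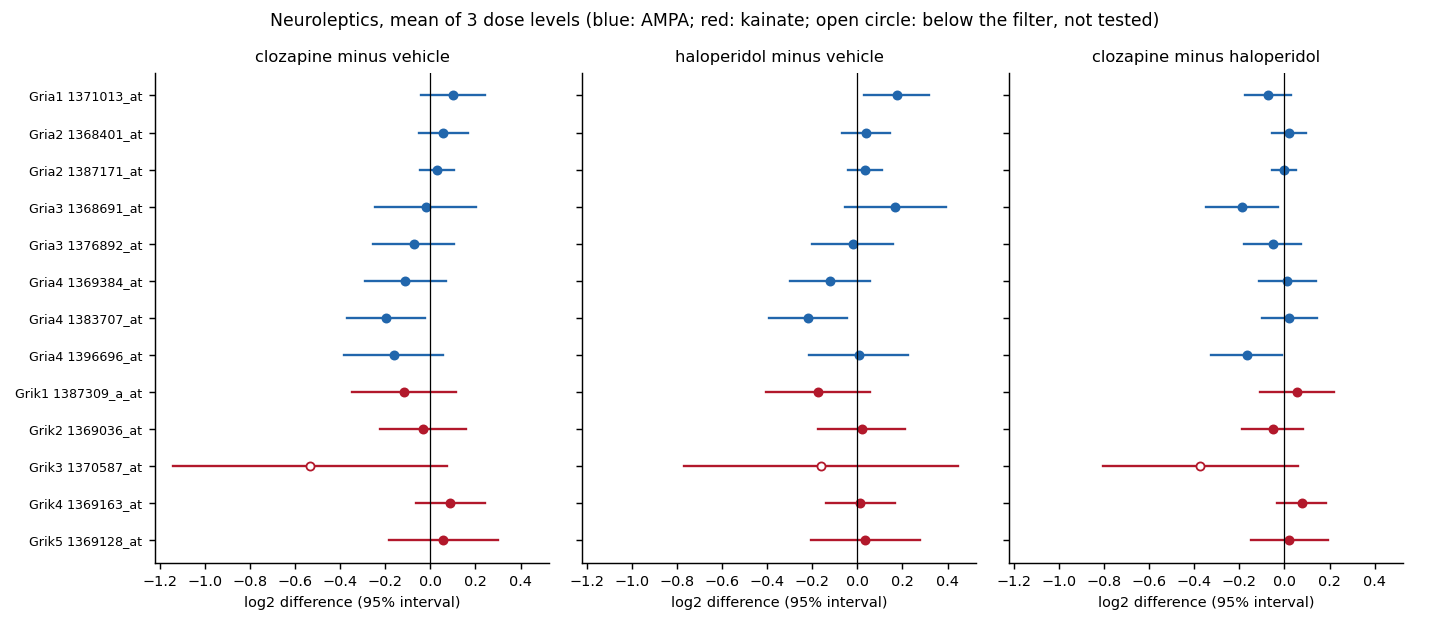
Log2 differences of the 13 probe sets with 95% intervals for clozapine minus vehicle, haloperidol minus vehicle and clozapine minus haloperidol, each drug as the mean of its 3 dose levels; blue marks AMPA and red kainate subunits, and the open circle is Grik3, which was below the filter. Gria4 on 1383707_at lies at -0.20 and -0.22 in the first 2 panels and at 0.022 in the third, and the first 2 panels share their vehicle arrays.

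The set of consecutive sample numbers often held more of a member's variance than the groups did. It held 61.2% of the variance of Gria1 in the lesion experiment, where the group held 0.00458%; the set means were 12.25 and 11.83. It held 44.9% for Gria4 on 1383707_at there, and 56.0% for Gria3 on 1376892_at, 43.2% for Gria4 on 1396696_at, 40.0% for Gria2 on 1368401_at and 35.8% for Grik5 in the neuroleptic experiment. These are among the highest shares of the members, and other members had small ones. The set held 0.28% for Grik2 in the lesion experiment and 0.019% for Gria2 on 1387171_at in the TTX experiment. For Gria4 on 1369384_at in the neuroleptic experiment it held 1.24%. In these 3 cases the groups held more, 11.4%, 12.1% and 11.7%. Over all probe sets tested the median share of the set was 4.77%, 9.33% and 16.4% (lesion, TTX, neuroleptics), against 2.94%, 2.50% and 8.84% for the groups. Gria3 on 1376892_at had set means of 14.66, 14.30 and 14.66, the middle set being the low one for it and for Gria4 on 1383707_at (11.87, 11.55 and 11.85). The labels do not say what the numbers stand for.

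**Figure D4:**
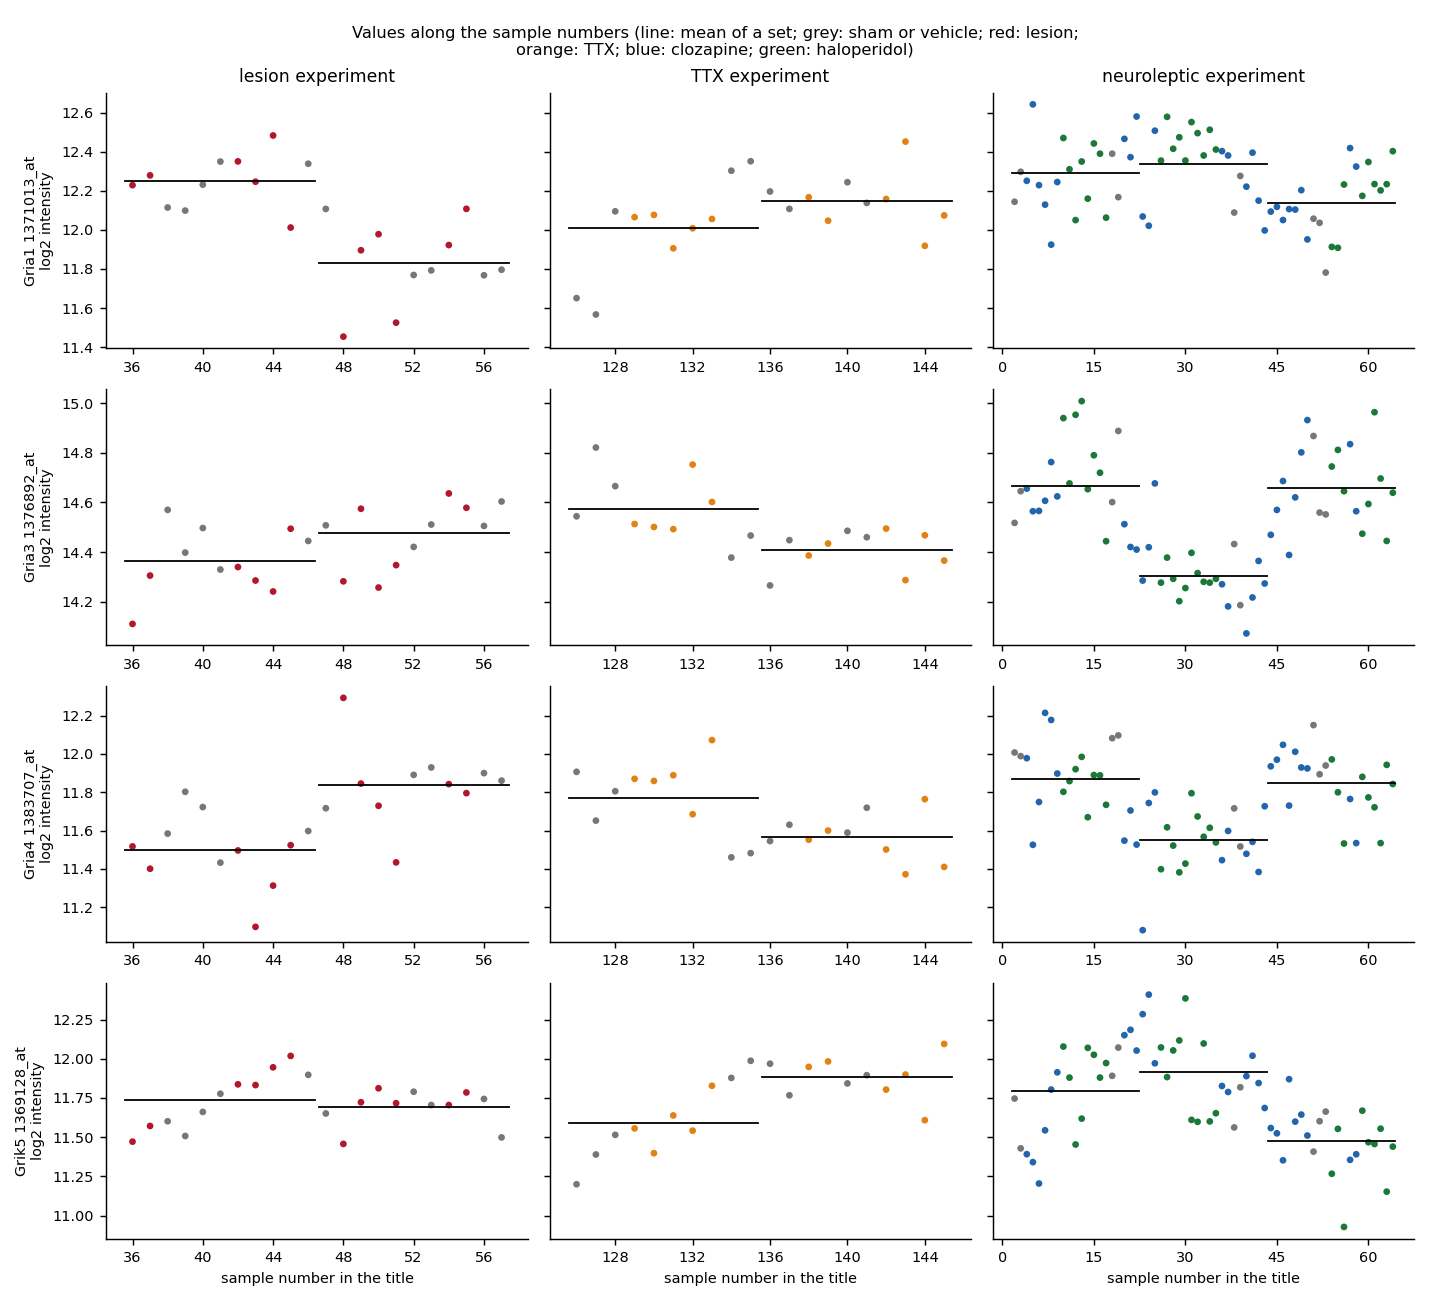
Log2 intensity of Gria1, Gria3 (1376892_at), Gria4 (1383707_at) and Grik5 against the sample number in the labels, by experiment; each point is 1 array and each black line the mean of a set of consecutive numbers. Grey marks sham or vehicle, red lesion, orange TTX, blue clozapine and green haloperidol. In some panels the colours move together from set to set, as for Gria1 from 12.25 to 11.83 in the lesion experiment. In others they do not. Grik5 had set means of 11.74 and 11.69 in the lesion experiment. For Gria4 (1383707_at), TTX minus sham was 0.21 in the first set and -0.088 in the second.

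Probe sets of 1 gene often disagreed on the same arrays. Over all arrays, with each value centred on its group mean, the Gria2 probe sets had r = -0.14 (rho = -0.053, permutation p = 0.153 and 0.591, adjusted over 5 pairs 0.255 and 0.830) and the Gria3 probe sets r = 0.053 (rho = -0.0018, permutation p = 0.590 and 0.986, adjusted 0.687 and 0.986). Of the 3 Gria4 pairs, 1383707_at and 1396696_at varied together with r = 0.44 (rho = 0.44, permutation p = 2e-05 for both, adjusted 1e-04), r = 0.40 without the 2 arrays farthest from the median. That correlation was positive in 6 of 7 sets of sample numbers, within a range of -0.28 to 0.69. Within those sets r ran from -0.50 to 0.58 for Gria2 and from -0.56 to 0.57 for Gria3, and without the 2 farthest arrays it was -0.041 and 0.024. The probe sets 1369384_at and 1383707_at had r = -0.20 (rho = -0.20, permutation p = 0.0377 and 0.0374, adjusted 0.0942 and 0.0935), -0.24 without the 2 farthest arrays, and were negative in 7 of 7 sets, from -0.47 to -0.065. The pair of 1369384_at and 1396696_at gave r = 0.040 (rho = 0.043, permutation p = 0.687 and 0.664, adjusted 0.687 and 0.830). For these pairs too, arrays of different sets of sample numbers were permuted as exchangeable, so the p-values are too small where the sets differ. In the neuroleptic experiment the sets held 40.4% of the variance of 1383707_at and 43.2% of that of 1396696_at. An r with the set means removed was not calculated for the probe set pairs. Centring on the group means takes out the differences between groups. These r values thus describe the scatter of arrays within groups. They cannot show whether a group difference on 1 probe set was shared by the other.

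**Figure D5:**
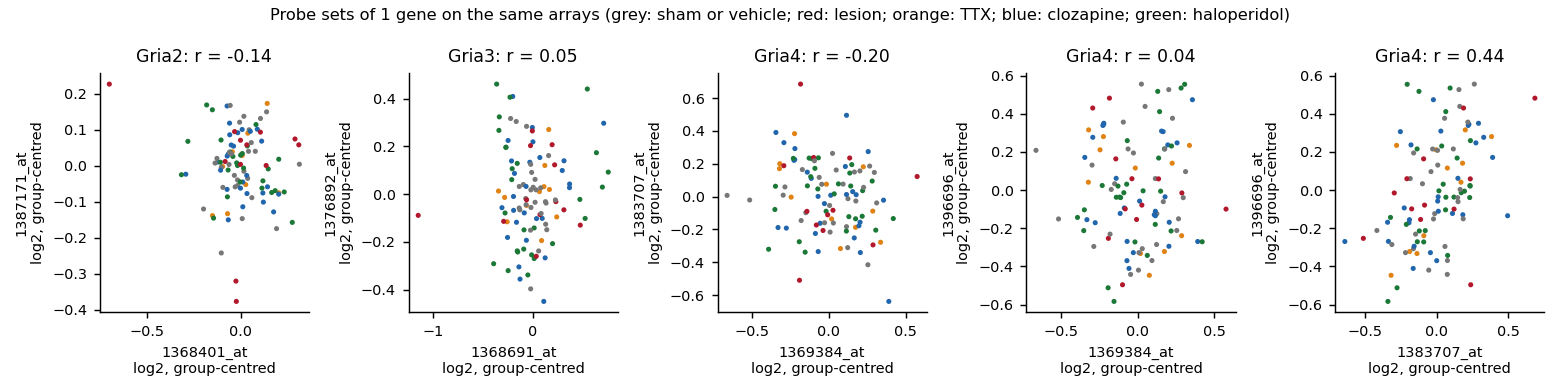
Group-centred log2 values of probe sets of the same gene plotted against each other over all arrays, with Pearson's r above each panel; colours are those of the groups. Only the last panel, Gria4 on 1383707_at and 1396696_at, has a clear slope (r = 0.44), and the Gria2 and Gria3 panels have r of -0.14 and 0.05.

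Between member genes, taking the probe set with the highest mean of each, group-centred values were correlated in 36 pairs. Of these 19 passed an adjusted permutation p of 0.05, 8 with a positive and 11 with a negative sign, and 0 of those 19 kept their sign in all 7 sets of sample numbers. The permutations took arrays of different sets as exchangeable, so these p-values are too small where the sets differ. With the set means removed, r was under 0.1 in size for 6 of the 19 pairs and over 0.25 for 6, within 0.029 to 0.42; Gria2 and Gria3, for example, went from -0.42 to -0.080, and Gria4 and Grik4 from -0.34 to -0.029. Among the pairs that kept more, Gria1 and Gria2 had r = 0.53 (rho = 0.49), which was 0.40 with the means of the sets removed. Gria2 and Gria4 had r = -0.62 (rho = -0.63), and -0.42 with the set means removed. Gria3 and Gria4 had r = 0.58 (rho = 0.64), and 0.28 with the set means removed. Permutation p was 1e-05 for each of these 3 pairs and both coefficients, the smallest that the permutations can give (adjusted 7.2e-05 for r and 6e-05 for rho). Without the 2 arrays farthest from the median, r was 0.50, -0.57 and 0.58. Within single sets r ran from -0.35 to 0.60, from -0.89 to 0.082 and from -0.032 to 0.50.

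The genes whose group-centred values were most like each member were sought among 13808 probe sets of 9996 other genes, over the arrays of all 11 groups, and are given as a description. For Gria1 they were Hpcal4 (r = 0.74) and C1ql3 (r = 0.65), for Gria2 Smarca4 (0.75) and Reln (0.71), for Gria3 Ppp3cb (0.84) and Syt16 (0.83), and for Gria4 Vma21 (0.77) and Olfm3 (0.74). Hpcal4 encodes a neuronal calcium sensor, C1ql3 a secreted synaptic organiser, and Ppp3cb a catalytic subunit of calcineurin. For Grik5 they were Fcho1 (0.86), Chd3 (0.85) and Grin1 (0.84), the obligatory NMDA receptor subunit, and these values were 0.81, 0.82 and 0.76 with the set means removed. For Grik2 the most like was Sccpdh (0.73). Grik1, Grik3 and Grik4 had no gene above 0.48 (Tesc, for Grik4). The lowest r was that of Prxl2a for Gria2 (-0.68), Eef1d for Gria3 (-0.79), Lamb1 for Gria4 (-0.64), Dnajb2 for Grik2 (-0.70) and Arxes1 for Grik5 (-0.75). These arrays share the drift along sample numbers described above. With the set means removed, r was 0.61 for Hpcal4, 0.63 for Smarca4, 0.70 for Ppp3cb and 0.63 for Vma21. It was 0.66 for Sccpdh and 0.29 for Tesc. Some values also differed between experiments. In the lesion, TTX and neuroleptic experiments r was 0.85, 0.31 and 0.77 for Smarca4, but 0.73, 0.84 and 0.86 for Ppp3cb.

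Genes that act with the subunits were followed from lists of auxiliary subunits, trafficking and anchoring proteins, extracellular organisers, editing enzymes and the orphan receptors of the same family. Of 45 listed genes 37 were measured, and 31 or 32 were tested in a comparison. The 1 orphan receptor measured stayed below the filter. In the 6 main comparisons 0 of them were called (limma). At an unadjusted p under 0.05 it was 4 of 31 after the lesion, 1 of 32 after TTX, 5 of 31 for the difference between both effects, 1 of 32 for clozapine, 1 of 32 for haloperidol and 2 of 32 between the drugs. Over all probe sets the shares were 7.81%, 4.63%, 6.34%, 3.81%, 6.73% and 15.2% in the same order, against 12.9%, 3.13%, 16.1%, 3.13%, 3.13% and 6.25% of the listed genes.

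After the lesion, 3 of 10 tested AMPA auxiliary subunits had a higher and 7 a lower mean, with a median of -0.056. Gsg1l, an auxiliary subunit that slows recovery of AMPA receptors from desensitisation, differed by -0.17 ± 0.064 (SE, adjusted p = 0.588). Grip2, a scaffold that binds the tails of AMPA receptors, differed by -0.24 ± 0.082 (SE, adjusted p = 0.564). C1ql1, a secreted synaptic organiser, had 0.30 ± 0.094 (SE, adjusted p = 0.506) and Akap5, an anchor for kinases and calcineurin at the receptor, 0.36 ± 0.15 (SE, adjusted p = 0.607). The tested trafficking genes were split, 6 higher and 7 lower.

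After TTX, 8 of 10 AMPA auxiliary subunits had a higher mean, with a median of 0.067, and Cnih2, which promotes export of the receptor from the endoplasmic reticulum, had 0.17 ± 0.068 (SE, adjusted p = 0.999). Adarb1, the enzyme that edits the Gria2 transcript, had -0.13 ± 0.067 (SE, adjusted p = 0.999). For clozapine, Cacng2, the auxiliary subunit stargazin, had 0.17 ± 0.082 (SE, adjusted p = 0.977). For haloperidol, Dlg4, the scaffold PSD-95, had 0.29 ± 0.11 (SE, adjusted p = 0.646). Between clozapine and haloperidol, C1ql3 had -0.24 ± 0.070 (SE, p = 0.000847, adjusted p = 0.0578), the lowest adjusted p of the listed genes.

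The remaining listed genes of small p in either direction were not called either. After TTX, Gpc4, a glypican that acts at forming synapses, had 0.21 ± 0.11 and Cacng2 -0.10 ± 0.069 (SE). In the difference between lesion and TTX effects, Gpc4 had -0.39 ± 0.16 and Gsg1l -0.28 ± 0.12, both lower after the lesion than after TTX, while C1ql1 had 0.22 ± 0.12 and Abhd6 0.10 ± 0.061 (SE), with an adjusted p of 0.71 or more for each. Clozapine minus vehicle gave 0.17 ± 0.11 for Dlg4, -0.098 ± 0.066 for Gpc4 and -0.093 ± 0.068 (SE) for Snx27, a sorting protein of endosomes. Haloperidol minus vehicle gave 0.56 ± 0.34 for Cacng8, an auxiliary subunit, -0.10 ± 0.065 for Cpt1c and -0.11 ± 0.066 (SE) for Gpc4. Clozapine minus haloperidol gave 0.089 ± 0.044 for Gripap1, 0.088 ± 0.048 for Cacng3 and -0.092 ± 0.048 (SE) for Snx27.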

How the data were processed

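Gene symbols came from the platform's probe table. The arrays' values were deposited by the authors as linear intensity per probe set, scaled to a common 2%-trimmed mean as the values show; for the software and its settings the sources used here give nothing. Within each experiment these intensities were quantile-normalised, set to a floor of 32 and taken to log2, and 57 control probe sets were left out of 31099. The 60% of probe sets with the highest mean were tested with limma 3.58.1 in R 4.3.3 (lmFit and eBayes, Benjamini-Hochberg, threshold 0.05), 1 fit per experiment and 1 over both hippocampal experiments. The script was tested on simulated data. Member genes, lists and tests were chosen with earlier results of these data known. Every member is named; of the listed genes, the 2 higher and the 2 lower ones of smallest p in a comparison are, and like genes come from the 3 with the highest and the 1 with the lowest r. Permutation tests were two-sided, with 100000 permutations. Figures were drawn with matplotlib 3.10.9. The number of arrays limits the precision.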

Additional observations from a re-analysis of the deposited data

Results flagged for a closer look

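Single arrays stood apart from the rest of their group in 6 of 117 combinations of group and probe set, by the gap to the nearest array over the range of the group (Dixon's criterion at 95%). Chance alone flags about 1 in 20. The criterion was applied to groups of at most 10 arrays, so 26 further combinations, those of the lesion and TTX groups, were not screened. Among these, lesion replicate 7 had 14.62 for Gria2 on 1368401_at, with the others from 15.24 to 15.63, and 11.80 for Gria3 on 1368691_at, with the others from 12.65 to 13.42. For Gria1, clozapine medium replicate 3 had 12.58 and the others 12.00 to 12.23. For Gria2, vehicle replicate 6 had 15.63 on 1368401_at, the others 15.18 to 15.40, and haloperidol low replicate 9 had 15.01 on 1387171_at, the others 14.77 to 14.87. Vehicle replicate 9 had 8.83 for Gria4 on 1369384_at, below the 9.32 to 9.80 of the other vehicle arrays. Clozapine medium replicate 2 had 10.30 for Grik1, above the 9.13 to 9.61 of its group. Clozapine low replicate 10 had 6.56 for Grik3, below the 7.61 to 8.74 of its group and in the range where this probe set was not tested.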

How the results depend on the processing

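Under 10 alternative settings and in 147 fits that each left out 1 array, 0 tested members were called, and the lowest adjusted p was 0.0541 over the settings and 0.116 over the left-out arrays. Of 1560 member values under these settings, over all 12 comparisons, 55 had another sign than in the reported fit, and 0 of the 63 differences over 1 SE were among them. The counts of all probe sets called moved more, and the cause was not tested. After the lesion 0 became 1 with no filter and at most 1 when 1 array was left out (lowest 0, without lesion replicate 5 the highest). The difference between lesion and TTX effects went from 0 to 4 with the sample number as covariate. For clozapine 0 became 1 with the values as deposited, the stricter filter, the intensity trend or without the low-correlation arrays, and 0 to 1 with 1 array left out. For haloperidol 3 became 1 with no filter and 6 with the set of sample numbers as block, and 1 to 5 with 1 array left out. Between the drugs 224 became 49 with no filter, 1338 with the set as block, 529 with array weights and 67 without the low-correlation arrays; leaving out 1 array gave 56 (haloperidol high replicate 7) to 666 (clozapine high replicate 2). Over the single dose levels the total went from 11 to 27 with the set as block, 18 with the sample number and 23 with array weights. No paired analysis was possible because the labels give no replicate numbers shared between groups.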
